A study of Zea mays with 56 samples.

Results

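Copia retrotransposons outside the B-tagged set were followed in maize leaves with and without B chromosomes. They were taken as every row of the transposable element (TE) count table whose identifier begins with RLC, the usual code for Copia elements with long terminal repeats, and does not hold the tag zmB. That gave 13322 of the 60247 TEs in the table. The first 8 characters of an identifier were read as its family, which gave 1175 families, 787 of them with 1 element. A further 184 Copia elements carry the zmB tag and were left aside.

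Copia elements are retrotransposons: an element is transcribed by the host from promoter sequences in its long terminal repeat, its RNA is copied back into DNA by the element's own reverse transcriptase, and the new copy is placed elsewhere in the genome by its integrase. In Copia elements the integrase is encoded ahead of the reverse transcriptase, the reverse of the order in Gypsy elements. Most copies in a plant genome are kept silent by DNA methylation and small RNAs, and in maize Copia elements are often found nearer to genes than Gypsy elements are. B chromosomes are dispensable extra chromosomes that come on top of the regular set, the A chromosomes, and that hold many TEs of the same families.

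All plants were the maize inbred W22, and the study asked how B chromosomes relate to gene, TE and small RNA expression. Plants were typed for B chromosomes in seedlings by fluorescence in situ hybridization, grown in a greenhouse and sampled as leaf at 45 days. Each of 28 plants gave an RNA-seq library, and these are used here; the series holds 56 samples in all. The control group had 4 plants without B chromosomes, and the carriers were 4 plants each with 1, 2, 3 and 4 copies, 2 plants with 5, 3 with 6 and 3 with 7, written 1B to 7B. Plants of 1 group are labelled as biological replicates, and p-values measure the spread between them. Controls carry another series of plant codes than all carriers, and B presence and plant series cannot be told apart. The gene table pairs its identifiers with no names, so the leaf label was not checked against marker genes.

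A library held 738507 to 1623250 TE counts, of which 28528 to 66911 were Copia counts. The copy number labels were checked on the B-tagged Gypsy element RLG00487zmB00001, chosen after its values were seen, which stood at 0 CPM (TE counts scaled to library size) in all 4 controls and at group medians from 34.7 CPM in 1B to 217 CPM in 7B. One Gypsy element, RLG00021Zm00004b00084, took 2.96% to 31.4% of TE counts, most in Control replicates 2 and 4 and 1B replicate 3. Results were therefore also computed without these 3 libraries. The location of the Copia elements on A chromosomes rests on their identifiers, since the files give no TE coordinates. How reads that match several copies were counted is not given in the sources used here, so counts of near-identical copies, on A or B chromosomes, may be split between them and are uncertain.

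Copia reads were a small share of TE reads and came from few elements. The share of TE counts was 4.34%, 3.00%, 4.25% and 2.03% in the 4 controls, and 2.04% to 5.09% with a median of 4.03% in the 24 carriers. The lowest control and the lowest carrier were Control replicate 4 and 1B replicate 3, and the control range lay almost wholly inside the carrier range. The mean was 3.41% ± 1.10 (SD, n = 4) in controls and 3.94% ± 0.603 (SD, n = 24) in carriers, a difference of 0.26 in mean log2 share (two-sided exact permutation test, p = 0.165). Without Control replicates 2 and 4 and 1B replicate 3 the difference was -0.10 (exact p = 0.413), and with all libraries, but without the 10 TEs with the most counts in the denominator, it was 0.00 (exact p = 0.912). Its direction rests on those libraries and TEs. In bulk leaf, fewer cells that transcribe an element and less RNA per cell cannot be told apart.

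Among carriers, the Copia share was larger in plants with more B copies. The 1B plants averaged 3.47% ± 1.07 (SD, n = 4), the 2B plants 3.84% ± 0.387 (n = 4), the 3B plants 3.60% ± 0.123 (n = 4) and the 4B plants 4.14% ± 0.727 (n = 4). The 5B plants averaged 4.37% ± 0.225 (n = 2), the 6B plants 4.13% ± 0.0383 (n = 3) and the 7B plants 4.42% ± 0.177 (n = 3). Pearson's r with copy number was 0.491 (permutation p = 0.00821) and Spearman's rho 0.478 (permutation p = 0.0188) over 24 plants, and r was 0.470 without the pair of plants farthest from the median copy number. It was the 1 relation across plants that was computed. With synthetic ERCC spike-in counts in place of TE counts as the denominator, r was 0.177 (permutation p = 0.408), so the relation held for the share of TE reads and was not detected per spike-in read.

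**Figure D1:**
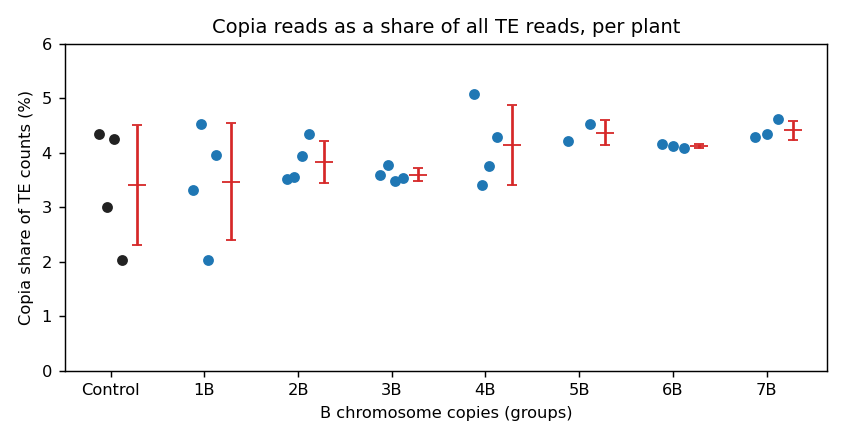
Copia share of TE counts (%, y axis) in each plant by group (x axis), controls in black and carriers in blue; red marks beside the points give the group mean ± SD. Control replicate 4 (2.03%) and 1B replicate 3 (2.04%) are the lowest plants, and the 7B plants lie between 4.29% and 4.62%.

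At least 1 count was found for 12136 of the 13322 elements (91.1%) over all libraries, but only 410 elements had a count in every library. The element with the most counts held 16.3% of Copia counts, the 5 with the most held 41.7%, and 3 families held 57.3%. A filter on low counts kept 532 elements for the comparison of carriers with controls; these held 89.0% of Copia counts. The 12790 elements it left out had a median of 5.00 counts over all 28 libraries together and at most 144. They made up 10.4% to 20.4% of Copia counts in controls, the highest share in Control replicate 1, and 8.18% to 13.5% in carriers. Control replicate 1 also had the most elements with a count, 6234, against 2265 to 4963 in the other libraries. Of all members, 5 had no count in any control and a count in each of the 24 carriers. A further 4 had a count in each control and none in any carrier, with 4 to 7 summed counts each. How many of all TEs show either pattern was not computed, so these numbers are a description.

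Levels were compared between elements per length, in deposited RPKM (reads scaled to element length and library size). The element with the highest mean, RLC00145Zm00004b00014, 7738 bp long, was higher in carriers. Its level was 3645, 5028, 4396 and 4788 CPM in the 4 controls and ran from 4792 CPM through a median of 6678 CPM to 8817 CPM in carriers. The groups overlapped only narrowly, with 22 of 24 carriers above the highest control. The log2 change was 0.59 ± 0.13 (SE; edgeR quasi-likelihood test, adjusted p = 3.1e-04), and its slope with copy number among carriers was 0.04 ± 0.02 per copy (adjusted p = 0.318). In deposited RPKM it stood at 564 ± 66.0 in controls (SD, n = 4) and 848 ± 119 in carriers (SD, n = 24).

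The next 4 elements by RPKM did not pass the test for B presence or for dosage. RLC00045Zm00004b00104 had 274 ± 32.9 RPKM in controls and 301 ± 35.0 in carriers, RLC00004Zm00004b06651 had 224 ± 23.6 and 251 ± 36.2, RLC00445Zm00004b00006 had 194 ± 43.8 and 203 ± 30.8, and RLC00002Zm00004b00095 had 161 ± 19.1 and 137 ± 27.8 (SD, n = 4 and n = 24). Their carrier and control ranges overlapped, and their adjusted p-values for B presence lay between 0.126 and 0.677. The sixth, RLC00032Zm00004b00247, at 1204 bp the shortest element tested, had 73.5, 108, 88.4 and 75.6 CPM in controls and 64.2 to 205 CPM with a median of 121 CPM in carriers. It was called higher (log2 change 0.49 ± 0.19 SE, edgeR adjusted p = 0.0371), but 2 carriers lay below the lowest control. Its call was lost when any 1 of 13 libraries was left out (Control replicates 1, 3 and 4, 1B replicate 2, 2B replicates 3 and 4, 3B replicate 2, 4B replicates 1 and 4, 5B replicate 2, 6B replicate 1 and 7B replicates 2 and 3), with log2 changes of 0.37 to 0.46, and with the 3 libraries rich in RLG00021Zm00004b00084 left out (log2 change 0.56, adjusted p = 0.115).

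Carriers and controls differed at 232 of the 532 tested elements, 110 higher and 122 lower in carriers (43.6%). Over all 5359 TEs tested in the same fit, 45.4% were called, so Copia elements were called about as often as TEs in general. The median log2 change was 0.07 for the tested Copia elements and 0.06 for all tested TEs, while the called Copia elements had a median size of change of 1.58 and 179 of them changed by more than 1. With ERCC spike-in scaling, which moved the median of all tested TEs to 0.38, the calls were 135 higher and 91 lower, or 59.7% higher against 47.4%; 201 of the 232 elements stayed called. Without Control replicates 2 and 4 and 1B replicate 3 the counts were 79 higher and 100 lower. Of all TEs tested 23.7% were higher and 21.7% lower, against 20.7% and 22.9% of the Copia elements. All 24 carriers lay above the highest control for 28 elements (5.26%, against 8.25% of all TEs tested) and below the lowest control for 59 (11.1%, against 8.34%), and all of these were called. The sign of the change was the same at all 7 copy numbers for 230 of the 232 elements; the 7 comparisons share the same 4 controls.

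These counts are tied to the filter on low counts, which asked for about 8.28 CPM in at least 2 libraries of any kind. An element that reached that level in controls alone, or in carriers alone, was let in by that kind of plant. Where it was then called higher in that kind, its p-value and lack of overlap are a description. This held for 33 of the 34 elements that reached it in controls alone, which were called lower in carriers (97.1%). Over all TEs that reached it in controls alone, 98.2% were called lower. The same held for 74 of the 110 higher calls, made among 210 elements that reached it in carriers alone. Of these 210, 36.7% were called, 35.2% higher and 1.43% lower (3 elements). Over all TEs that reached it in carriers alone, 36.0% were called, 35.3% higher and 0.693% lower. Nearly all of these calls were thus in the direction of the plants that let the element in. The 277 elements that reached it in controls and in carriers each gave 36 higher and 80 lower calls (41.9%), while over all TEs of that kind 47.2% were called, 20.1% higher and 27.1% lower. Among the 277, all carriers lay above all controls for 8 (2.89%) and below them for 39 (14.1%). Over all TEs of that kind these shares were 7.62% and 9.56%.

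The largest rises for B presence were of elements with no or almost no reads in controls. RLC14069Zm00004b00003 had 0 counts in each control and 5.75 to 119.5 CPM with a median of 53.5 CPM in carriers. Set against 3 counts over the control group, the floor used for all such elements, that is at least 78.0-fold higher (edgeR adjusted p = 3.3e-11). RLC00022Zm00004b00265 had 0 counts in controls and 4.77 to 44.4 CPM in carriers, with a median of 15.8 CPM, at least 29.1-fold higher (adjusted p = 6.0e-09). RLC03512Zm00004b00002 had 0 counts in controls and 9.64 to 36.8 CPM in carriers, with a median of 17.2 CPM, at least 26.8-fold higher (adjusted p = 2.0e-08). For these 3 elements the groups did not overlap and each of the 24 carriers had reads.

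RLC04710Zm00004b00001 had 0, 0, 0.749 and 0 CPM in controls, which is 1 read in Control replicate 3, and 13.9 to 63.9 CPM in carriers. The ratio of pooled levels was 179 (95% counting interval 32.0 to 7063; edgeR adjusted p = 4.6e-11). RLC00002Zm00004b07961 had 0, 2.18, 0 and 0 CPM in controls and 8.25 to 83.4 CPM in carriers, a ratio of 94.2 (26.0 to 778; adjusted p = 7.4e-09). Neither element's groups overlapped. Intervals and floors cover counting error only.

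At lower levels, RLC00004Zm00004b07221 (at least 10.3-fold higher), RLC00002Zm00004b01200 (at least 7.31-fold) and RLC00002Zm00004b08989 (at least 7.31-fold) also had 0 counts in the 4 controls. Their carrier medians were 5.51, 4.34 and 4.94 CPM. RLC00004Zm00004b07221 and RLC00002Zm00004b01200 had reads in every carrier, RLC00002Zm00004b08989 in 22 of 24. All 8 of these elements reached the filter's level in carriers alone.

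These elements split by what happened between 1 and 7 copies. RLC03512Zm00004b00002 stood at 23.5 ± 10.7 CPM in 1B (SD, n = 4) and 18.1 ± 7.43 CPM in 7B (n = 3), with a slope among carriers of -0.09 ± 0.05 log2 per copy (adjusted p = 0.260). RLC04710Zm00004b00001 stood at 47.5 ± 10.4 CPM in 1B and 36.3 ± 8.52 CPM in 7B, with a slope of -0.04 ± 0.04 (adjusted p = 0.670). Neither slope passed the test. RLC14069Zm00004b00003 went from 9.43 ± 4.63 CPM in 1B to 91.2 ± 25.0 CPM in 7B, with a slope of 0.51 ± 0.06 (adjusted p = 2.3e-08), and RLC00022Zm00004b00265 from 7.36 ± 2.81 to 31.0 ± 4.43 CPM, with a slope of 0.30 ± 0.06 (adjusted p = 2.0e-04). Both rose with copy number. Whether such reads come from A or B copies cannot be told apart with these counts.

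**Figure D2:**
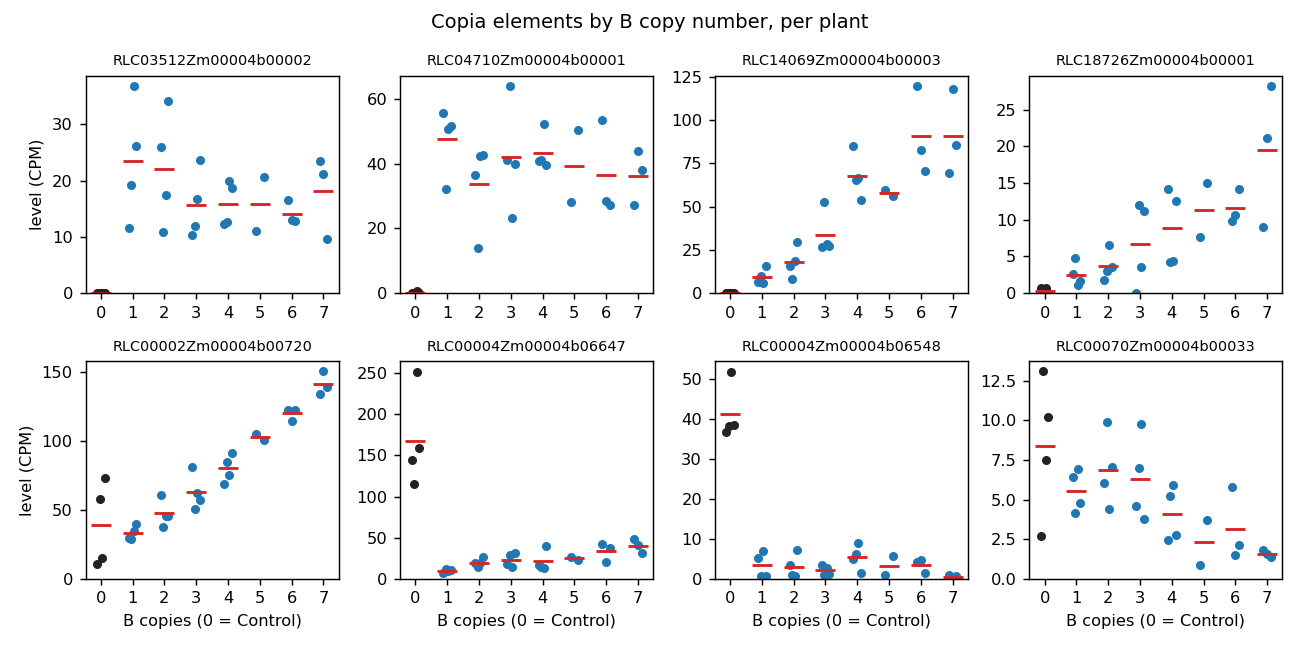
Level (CPM, y axes starting at 0) of 8 Copia elements in each plant by B copy number (x axes), controls in black and carriers in blue; red lines are group means. RLC03512Zm00004b00002 and RLC04710Zm00004b00001 are near 0 in controls and level among carriers, RLC14069Zm00004b00003 and RLC18726Zm00004b00001 climb from near 0, and RLC00004Zm00004b06647 lies at 115 to 252 CPM in controls and climbs from 9.42 CPM in 1B to 40.4 CPM in 7B.

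The largest falls were of elements with moderate reads in controls that were near 0 in carriers. RLC00002Zm00004b09030, a 13043 bp element, stood at 13.6, 17.4, 26.2 and 14.1 CPM in controls and at 0 to 1.98 CPM in carriers, with a median of 0 (log2 change -5.17 ± 0.40 SE; edgeR adjusted p = 1.0e-11). RLC00004Zm00004b06548, a 4981 bp element, stood at 36.7, 38.2, 51.7 and 38.4 CPM in controls and at 0 to 8.83 CPM in carriers, with a median of 2.04 CPM (log2 change -4.02 ± 0.31; adjusted p = 4.3e-12). In both cases every carrier lay below every control.

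The other 6 of the 8 largest falls had the same form. RLC00002Zm00004b08306 went from 13.8 ± 5.37 CPM in controls (SD, n = 4) to 0.967 ± 1.01 CPM in carriers (SD, n = 24), RLC00002Zm00004b11394 from 8.32 ± 2.71 to 0.390 ± 0.541 CPM and RLC00004Zm00004b05111 from 8.90 ± 2.12 to 0.844 ± 0.962 CPM. RLC00002Zm00004b03378 went from 10.8 ± 2.68 to 0.861 ± 1.07 CPM, RLC00002Zm00004b05463 from 10.8 ± 2.85 to 1.31 ± 1.49 CPM and RLC00002Zm00004b02659 from 13.7 ± 3.50 to 1.32 ± 1.15 CPM. All 8 reached the filter's level in controls alone, so that their differences are a description. All 8 belong to RLC00002 or RLC00004, the 2 families with the most elements tested, and none had enough reads in carriers to be tested for dosage.

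Falls were also found for elements with high control levels, named here after their values were seen as the 3 with the highest control means among those whose carriers all lay below the controls. RLC00002Zm00004b03164 went from 625 ± 83.0 CPM in controls, lowest 509.7 CPM, to 137 to 352 CPM in carriers, with a median of 226 CPM (log2 change -1.35 ± 0.13 SE; edgeR adjusted p = 3.6e-10). RLC35927Zm00004b00001, the only element of its family, went from 486 ± 96.4 CPM to 110.3 to 194 CPM, with a median of 145 CPM (log2 change -1.70 ± 0.11; adjusted p = 3.4e-14). RLC00019Zm00004b00417 went from 296 ± 35.2 CPM to 74.8 to 216 CPM, with a median of 142 CPM (log2 change -1.05 ± 0.13; adjusted p = 3.5e-08). Their 1B means were already 211, 151 and 148 CPM and their 7B means 282, 143 and 128 CPM, and their slopes among carriers did not pass the test.

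Among the 28 elements with all carriers above all controls, some had reads in each control as well; 3 are named after their values were seen. RLC00002Zm00004b11270 went from 91.6 to 122 CPM in controls to 129.8 to 235 CPM in carriers (log2 change 0.79 ± 0.12 SE; edgeR adjusted p = 2.9e-06). RLC00462Zm00004b00002, at 18762 bp the longest element called higher, went from 65.8 ± 11.4 to a carrier median of 144 CPM (log2 change 1.17 ± 0.14; adjusted p = 6.0e-08). RLC00002Zm00004b02021, at a lower control level, went from 7.40 ± 0.408 CPM in controls to 48.1 to 168 CPM in carriers (log2 change 3.54 ± 0.27; adjusted p = 3.8e-12). This last element reached the filter's level in carriers alone, so its difference is a description. The others named here reached it in controls and in carriers each.

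Every group of carriers was next compared with the 4 control plants, which all 7 comparisons share. In 1B, 183 of the 532 elements were called, 87 higher and 96 lower (34.4%), while of all TEs tested 34.6% were called, 19.3% higher and 15.2% lower. In 7B, 189 were called, 92 higher and 97 lower (35.5%), while of all TEs 36.1% were called, 19.4% higher and 16.8% lower. In this fit with all libraries, 1 copy in 4 plants thus gave nearly as many calls as 7 copies in 3 plants. Without Control replicates 2 and 4 and 1B replicate 3, 47 elements were higher and 76 lower in 1B, 52 and 78 in 2B, and 72 and 79 in 7B. The totals were then 123 in 1B and 151 in 7B, so the 2 ends were less alike.

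Between these ends, 177 elements were called in 2B (83 higher, 94 lower) and 173 in 3B (75 and 98). Of all TEs, 33.6% were called in 2B (18.6% higher, 15.1% lower) and 31.6% in 3B (17.4% and 14.2%). In 4B 213 elements were called (115 and 98), against 40.0% of all TEs (21.6% and 18.5%). The 5B group, with only 2 plants, gave 156 calls (72 and 84), against 29.9% of all TEs (16.4% and 13.5%), and 6B gave 197 (88 and 109), against 37.0% (20.0% and 17.0%). The Copia percentages, 29.3% to 40.0%, lay within a few points of the TE background at every copy number. Called at all 7 copy numbers were 38 elements in the higher direction (7.14%, against 10.4% of all TEs) and 68 in the lower direction (12.8%, against 8.71%).

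The balance of higher and lower calls depended on scaling at 4 copy numbers. With ERCC spike-in scaling the calls were 107 higher and 56 lower for 1B, 188 and 36 for 4B, 80 and 27 for 5B, and 109 and 52 for 7B, while 2B, 3B and 6B kept a balance within 5 points of that without it. In the authors' deposited table, which lists all 13322 elements, an FDR (adjusted p) under 0.05 is given to 117 elements at 1 copy (30 higher, 87 lower) and to 226 at 7 copies (161 and 65). Between these, 2B has 150 (75 and 75), 3B has 173 (66 and 107), 4B has 202 (121 and 81), 5B has 88 (68 and 20) and 6B has 204 (111 and 93). The 1B and 7B totals lie further apart in the deposited table than in the fit used here. Of all TEs listed there, 1.13%, 1.92%, 2.02%, 2.22%, 1.35%, 2.38% and 2.67% have such an FDR in 1B to 7B, in that order.

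**Figure D3:**
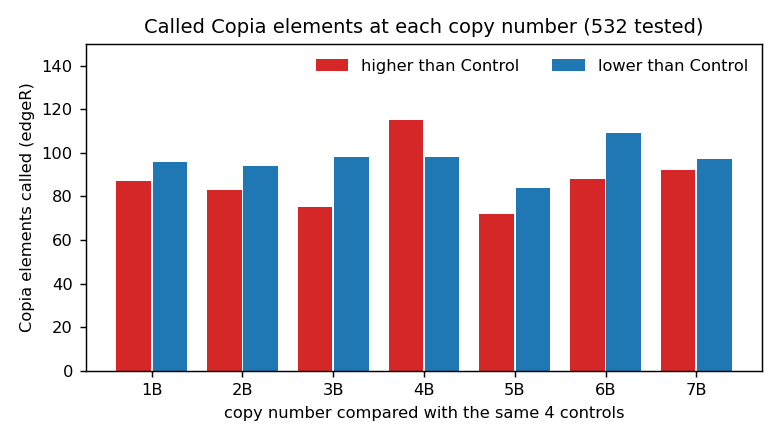
Copia elements (y axis, starting at 0) called higher (red) or lower (blue) at each copy number (x axis) against the same 4 controls, of 532 tested. The bars run from 72 (5B, higher) to 115 (4B, higher) and show no steady climb from 1B to 7B.

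Copy number among the 24 carriers was related to few elements: 53 of the 474 tested, 37 rising and 16 falling with each copy (11.2%), against 12.6% of all TEs tested, of which 8.97% rose and 3.59% fell. With ERCC spike-in scaling 30 rising and 1 falling elements were called. The dosage fit had its own filter on low counts, applied to the carriers alone. An element low at few copies could pass it through plants with many copies alone. Its slope and p-value are then a description. Which plants let each element in was not computed for this fit. Of the 37 rising elements, 27 were also higher in carriers than in controls, 6 were lower than in controls, and 4 were not called for B presence. A control mean under 1 CPM was found for 19 of the 37. Of the 16 falling elements, 8 were lower in carriers, 1 was higher and 7 were not called.

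The steepest rises among elements with a mean of at least 1 CPM were of RLC14069Zm00004b00003 and RLC00004Zm00004b01821. The latter, a 3059 bp element, had 0.680, 0, 0 and 0 CPM in controls and went from 0.809 ± 0.578 CPM in 1B (SD, n = 4) to 7.73 ± 2.39 CPM in 7B (SD, n = 3). Its slope was 0.51 ± 0.08 log2 per copy (SE, edgeR adjusted p = 1.4e-05), with the limit of the dosage filter given above. RLC18726Zm00004b00001 had 0.680, 0, 0.749 and 0 CPM in controls and went from 2.53 ± 1.63 CPM in 1B to 19.5 ± 9.70 CPM in 7B (slope 0.43 ± 0.08; adjusted p = 9.3e-05). Its 7B plants spread widely, at 9.04, 21.2 and 28.2 CPM, and the first of them lay within the range of the 4B plants. The limit of the dosage filter applies to its slope too.

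Also among the 5 steepest rises, RLC00002Zm00004b14208 went from 0.172 ± 0.344 CPM in 1B to 6.26 ± 3.20 CPM in 7B (slope 0.48 ± 0.10; adjusted p = 0.00113) and RLC00004Zm00004b02746 from 1.15 ± 0.256 to 11.7 ± 2.76 CPM (slope 0.47 ± 0.09; adjusted p = 3.2e-04). Both had 0 counts in all controls. Both were also low in 1B, so the same limit of the dosage filter applies to their slopes. Against the control floor they were at least 4.19-fold and at least 7.63-fold higher in carriers.

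The smallest adjusted p for dosage belonged to RLC00002Zm00004b00720, a 12734 bp element named after its values were seen. It stood at 29.7, 28.9, 34.5 and 39.8 CPM in 1B, at 60.7, 37.6, 46.0 and 46.0 CPM in 2B, and at 134, 151 and 139.7 CPM in 7B. Between these, the 3B plants averaged 63.0 ± 13.1 CPM, the 4B plants 80.4 ± 9.87 CPM, the 5B plants 103 ± 3.02 CPM and the 6B plants 120.2 ± 4.86 CPM, so the mean climbed at every step and the 1B and 7B plants were far apart. The slope was 0.34 ± 0.02 log2 per copy (SE; edgeR adjusted p = 4.7e-13). Its controls were split, at 10.9, 57.8, 15.0 and 73.0 CPM: Control replicates 1 and 3 lay below every 1B plant, and Control replicates 2 and 4, which are among the 3 libraries with the most RLG00021Zm00004b00084 reads, lay above every 1B plant. The element was called higher in carriers (log2 change 1.06 ± 0.26; adjusted p = 0.00108), with a log2 change of 2.52 ± 0.22 (adjusted p = 7.1e-10) when those 2 controls and 1B replicate 3 were left out.

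Risers that were lower in carriers than in controls began from a deep low in 1B. RLC00004Zm00004b06647 had 144, 115, 252 and 159 CPM in controls and 9.42 ± 2.22 CPM in 1B (SD, n = 4), and then 40.4 ± 8.20 CPM in 7B (n = 3). All 24 carriers, at 6.45 to 47.9 CPM, lay below the lowest control. Its log2 change for B presence was -2.88 ± 0.18 (SE; edgeR adjusted p = 2.8e-14) and its slope 0.26 ± 0.05 per copy (adjusted p = 1.0e-04).

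The other 5 of this kind were RLC00002Zm00004b10596, which had 219 CPM in controls, 54.1 CPM in 1B and 177 CPM in 7B, RLC00157Zm00004b00020 with 199, 36.5 and 71.5 CPM, RLC00157Zm00004b00007 with 129, 20.1 and 42.6 CPM, RLC00151Zm00004b00017 with 121, 22.6 and 49.4 CPM, and RLC07067Zm00004b00001 with 87.3, 34.5 and 62.6 CPM (group means). Summed over the 6, the level was 923 CPM in controls, 177 CPM in 1B and 443 CPM in 7B. The 27 risers that were higher in carriers summed to 86.0 CPM in controls, 203 CPM in 1B and 714 CPM in 7B. The 4 not called for B presence summed to 156, 96.5 and 257 CPM. These sums describe elements that were chosen by their slope and carry no test.

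Among those 4, RLC00316Zm00004b00003 stood at 91.8 ± 16.6 CPM in controls (SD, n = 4), at 42.2 CPM in 1B and at 159.8 ± 50.1 CPM in 7B (n = 3). Its log2 change for B presence was 0.05 ± 0.20 (SE; edgeR adjusted p = 0.873), while its slope was 0.27 ± 0.04 per copy (adjusted p = 1.0e-05). The 1B mean lay below the control mean and the 7B mean above it. RLC01954Zm00004b00001, with 51.6 ± 5.70 CPM in controls, 45.1 CPM in 1B and 73.0 ± 15.1 CPM in 7B, had a slope of 0.12 ± 0.02 (adjusted p = 9.8e-04).

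The 5 steepest falls with copy number were small. RLC00070Zm00004b00033, a 6575 bp element, had 2.72, 13.1, 7.49 and 10.2 CPM in controls and went from 5.56 ± 1.33 CPM in 1B to 1.58 ± 0.216 CPM in 7B (slope -0.28 ± 0.07 log2 per copy, SE; edgeR adjusted p = 0.00746). Its carriers, at 0.849 to 9.90 CPM, overlapped the controls. It stayed called with ERCC spike-in scaling, at a slope of -0.26 (adjusted p = 0.0499).

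The slopes of the other 4 were -0.23 ± 0.07 for RLC00074Zm00004b00051 (adjusted p = 0.0329), -0.23 ± 0.07 for RLC00475Zm00004b00001 (adjusted p = 0.0238), -0.21 ± 0.06 for RLC13509Zm00004b00001 (adjusted p = 0.0281) and -0.20 ± 0.06 for RLC00002Zm00004b05392 (adjusted p = 0.0190). All 4 lost the call with ERCC spike-in scaling, at slopes of -0.20, -0.21, -0.19 and -0.18. Without 6B replicate 1 all 4 calls were lost too, at -0.23, -0.20, -0.19 and -0.18. Other single libraries that ended a call were 1B replicate 1, 2B replicates 2 and 3, 3B replicate 2, 6B replicate 3 and each 7B plant for RLC00074Zm00004b00051, 1B replicates 1 and 4 for RLC00475Zm00004b00001, 1B replicate 2 (slope -0.13), 2B replicate 3 and 7B replicates 1 and 2 for RLC13509Zm00004b00001, and 1B replicate 4 and 7B replicate 1 for RLC00002Zm00004b05392. The last of them was also lower in carriers, from 42.2, 70.9, 36.7 and 51.2 CPM in controls to 6.41 to 43.7 CPM with a median of 16.9 CPM (log2 change -1.44 ± 0.24; adjusted p = 1.2e-05).

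**Figure D4:**
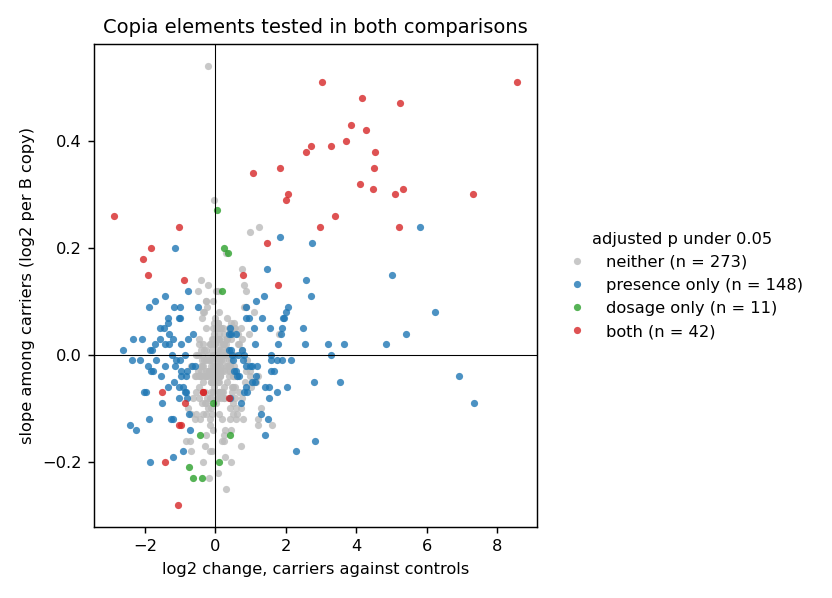
Slope among carriers (log2 per B copy, y axis) against log2 change of carriers from controls (x axis) for the 474 Copia elements tested in both; each point is an element and the colours give which adjusted p was under 0.05. Elements called in both (n = 42) lie mostly at the upper right, 6 lie at the upper left, and 148 called for B presence alone spread to both sides at slopes near 0.

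Summed by family, 92 of the 243 tested Copia families were called for B presence, 41 higher and 51 lower (37.9%), while of all TE families tested 44.7% were called, 21.5% higher and 23.2% lower. With ERCC spike-in scaling 43 were higher and 22 lower. Leaving out Control replicates 2 and 4 and 1B replicate 3 gave 23 and 45. In 195 of the 243 families more than 50% of the counts came from 1 element, and without the top element of each family 28 families were called, 7 higher and 21 lower. Most family values are therefore close to those of 1 element. Elements of both directions were called in 11 families, of 50 with 2 or more tested elements.

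The 2 largest families held elements of both directions. RLC00002, with 4332 elements and 22.4% of Copia counts, had 27 of its 119 tested elements higher and 38 lower. Its summed level was 10927, 9533, 10173 and 10200.0 CPM in controls and 7096 to 9991 CPM with a median of 8383 CPM in carriers, where 22 of 24 plants lay below the lowest control. The log2 change was -0.26 ± 0.09 (SE; edgeR adjusted p = 0.0270); with ERCC spike-in scaling it was 0.04 (adjusted p = 0.888), so its direction depends on the scaling. The call was also lost when any 1 of 11 libraries was left out (Control replicates 1, 3 and 4, 1B replicate 2, 2B replicate 4, both 5B plants, 6B replicates 1 and 3 and 7B replicates 1 and 3), with log2 changes of -0.25 to -0.21. RLC00004, with 3231 elements and 18.4% of Copia counts, had 16 of 60 tested elements higher and 20 lower, and its sum did not pass the test (log2 change -0.14 ± 0.10; adjusted p = 0.262; 0.15 with ERCC spike-in scaling). Its element with the most counts held 54.2% of the family's reads, and the sum without it was lower in carriers by a log2 change of -0.48 (adjusted p = 4.9e-08).

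RLC00145, next in counts with 16.4% of Copia counts, rose by 0.61 ± 0.14 on the log2 scale (SE; edgeR adjusted p = 5.4e-04), and 99.6% of its reads belonged to the element RLC00145Zm00004b00014 described above. RLC00045 and RLC00445 had 98.6% and 99.9% of their reads in 1 element and did not pass the test (log2 change 0.13 and 0.09). RLC00042 was lower in carriers, at 979, 1014, 908 and 1190.3 CPM in controls and 489 to 1060.4 CPM in carriers (log2 change -0.61 ± 0.13; adjusted p = 3.2e-04), with both tested elements lower; with ERCC spike-in scaling it was not called (-0.30, adjusted p = 0.193).

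RLC00151 and RLC00157 are small families whose tested elements mostly fell together. In RLC00151, 5 of 6 tested elements were lower and none higher; the sixth, RLC00151Zm00004b00014, held 68.8% of the reads and went from 446 ± 117 CPM to carrier values of 254 to 1042 CPM (log2 change 0.10 ± 0.25 SE; edgeR adjusted p = 0.780). The family sum was called lower (-0.58 ± 0.20; adjusted p = 0.0193), but not without Control replicate 1 or 3 (-0.49 and -0.47) or with ERCC spike-in scaling (-0.27), whereas the sum without that element had a log2 change of -1.61 (adjusted p = 2.2e-13). In RLC00157, named after its values were seen, all 6 elements were lower, from -1.31 ± 0.19 for RLC00157Zm00004b00014 to -2.14 ± 0.15 for RLC00157Zm00004b00005, which went from 87.7 ± 9.85 CPM in controls to 9.04 to 37.4 CPM in carriers. Elements of 1 family share sequence, and reads may be shared between them.

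RLC00014, with 342 elements of which 8 were tested, held 4 higher and 3 lower elements. Its sum was 625, 526, 480 and 415 CPM in controls and 374 to 716 CPM in carriers, with overlapping groups and a log2 change of -0.01 ± 0.10 (SE; edgeR adjusted p = 0.967). The sign of that change differed between scalings (0.29 with ERCC spike-in scaling). Within it, RLC00014Zm00004b00631, a 1271 bp element, rose from 0.528 ± 0.658 CPM in controls (SD, n = 4) to 9.62 to 51.5 CPM in carriers (log2 change 4.85 ± 0.57; adjusted p = 2.8e-08) and RLC00014Zm00004b00623, 1274 bp long, from 8.22 ± 1.66 CPM to 13.9 to 39.0 CPM (1.58 ± 0.25; adjusted p = 3.9e-06). In contrast RLC00014Zm00004b00340 fell from 74.9 ± 25.1 CPM to 9.26 to 35.4 CPM (-1.98 ± 0.20; adjusted p = 8.8e-10) and RLC00014Zm00004b00607 from 24.7 ± 6.29 CPM to 0.990 to 13.9 CPM (-2.27 ± 0.29; adjusted p = 1.5e-07). The 4 elements, named after their values were seen, had no overlap between controls and carriers. RLC00014Zm00004b00631 reached the filter's level in carriers alone, so its difference is a description.

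Also among the 10 families with the most counts, RLC03925 and RLC00032 were higher in carriers. RLC03925, a family of 1 element, had 387, 378, 436 and 388 CPM in controls and 400 to 941 CPM with a median of 490 CPM in carriers (log2 change 0.43 ± 0.15 SE; edgeR adjusted p = 0.0192). This call was lost without Control replicate 2, at a log2 change of 0.41. RLC00032 had 320, 288, 286 and 256 CPM in controls and 253 to 658 CPM with a median of 407 CPM in carriers (0.55 ± 0.15; adjusted p = 0.00387), with 6 of its 15 tested elements higher and none lower. Neither was called without Control replicates 2 and 4 and 1B replicate 3, at log2 changes of 0.39 and 0.49.

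**Figure D5:**
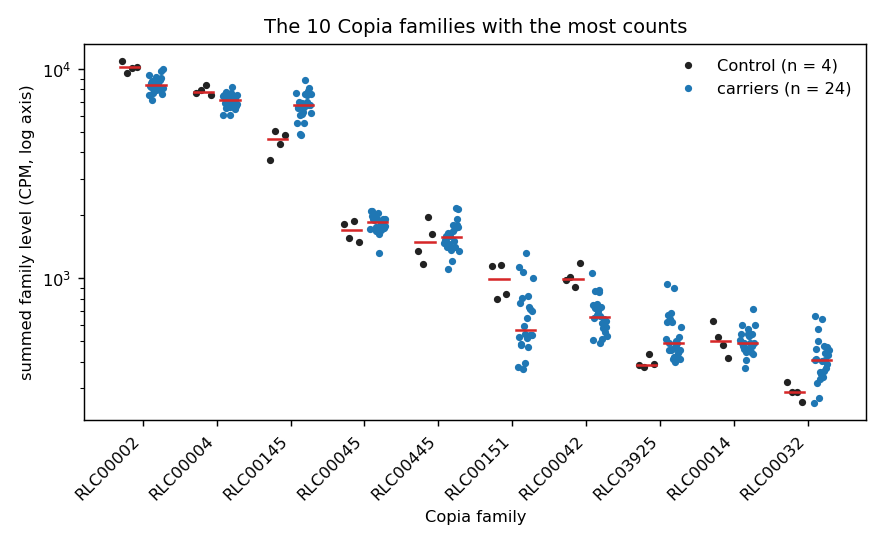
Summed level (CPM, log y axis) of the 10 Copia families with the most counts (x axis) in each control (black) and carrier (blue); red lines are group medians. Carriers lie mostly below controls in RLC00042 and above them in RLC00145 and RLC00032, and the groups overlap in RLC00045, RLC00445 and RLC00014.

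Families with the largest rises for B presence were mostly single elements. RLC03512 and RLC04710 are carried by the elements described above. RLC06713, 1 element of 7255 bp, went from 2.04, 2.18, 0 and 0 CPM in controls to 15.5 to 90.5 CPM in carriers (log2 change 5.24 ± 0.46 SE; edgeR adjusted p = 6.1e-11). RLC34609 went from 0.680, 1.09, 0 and 0 CPM to 3.45 to 30.6 CPM (4.56 ± 0.46; adjusted p = 1.1e-09) and RLC24761 from 0.680, 0, 0 and 0 CPM to 0 to 14.2 CPM (4.12 ± 0.83; adjusted p = 1.4e-04). In the first pair of these every carrier lay above every control, and in RLC24761 22 of 24 did. The tested elements of all 5 families reached the filter's level in carriers alone, so these differences are a description. For family sums themselves this was not computed.

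The 5 largest family falls were of RLC01864, RLC03101, RLC00183, RLC09673 and RLC26420. RLC03101 stood at 165, 179, 117 and 138 CPM in controls and 12.1 to 40.7 CPM in carriers (log2 change -2.59 ± 0.15 SE; edgeR adjusted p = 1.3e-14), RLC26420 at 113, 94.9, 102 and 76.9 CPM and 3.87 to 50.7 CPM (-2.08 ± 0.25; adjusted p = 5.4e-08), and RLC01864 at 10.2, 15.3, 14.2 and 15.4 CPM and 0 to 6.19 CPM (-2.96 ± 0.36; adjusted p = 4.2e-08). In these 3 families no carrier reached a control. RLC09673 stood at 18.4, 18.5, 7.49 and 3.84 CPM in controls and 0 to 7.95 CPM in carriers (-2.32 ± 0.39; adjusted p = 1.1e-05). RLC00183 stood at 23.1, 1.09, 8.24 and 0 CPM in controls and 0 to 3.92 CPM in carriers (-2.39 ± 0.52; adjusted p = 3.6e-04), so 2 of the 4 controls lay within the carrier range and Control replicates 1 and 3 above it. The tested elements of RLC01864, RLC09673 and RLC00183 reached the filter's level in controls alone, so their differences are a description. Those of RLC03101 and RLC26420 reached it in controls and in carriers each.

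With copy number, 17 of the 227 tested Copia families were called, 13 rising and 4 falling, while of all TE families 12.4% were called, 9.28% rising and 3.09% falling; with ERCC spike-in scaling 11 rose and none fell, and without the top element of each family 1 rose and 2 fell. The 5 steepest family slopes were 0.49 ± 0.05 log2 per copy for RLC14069 (SE; edgeR adjusted p = 3.2e-08), 0.42 ± 0.07 for RLC18726 (adjusted p = 7.5e-05), 0.37 ± 0.04 for RLC34609 (adjusted p = 1.8e-08), 0.32 ± 0.08 for RLC24761 (adjusted p = 0.00334) and 0.32 ± 0.04 for RLC03510 (adjusted p = 8.8e-07). Of these, RLC34609 went from 4.70 ± 1.29 CPM in 1B to 27.8 ± 2.92 CPM in 7B (SD, n = 4 and n = 3) and RLC03510 from a mean of 5.51 CPM to one of 26.7 CPM, each with all carriers above all controls. The tested elements of both reached the filter's level in carriers alone, so that lack of overlap is a description. The limit of the dosage filter given for elements holds for families too, and which plants let each family in was not computed. A zmB-tagged element was found in 9 of the 227 families and in 0 of the 13 that rose. The 4 falling families, RLC13509, RLC00070, RLC15773 and RLC00475, had slopes between -0.21 and -0.10 and lost the call with ERCC spike-in scaling, where their slopes were -0.19, -0.10, -0.11 and -0.07. The calls of RLC13509, RLC15773 and RLC00475 were also lost when any 1 of 2, 15 and 9 libraries was left out, at slopes of -0.19 to -0.13, -0.12 to -0.11 and -0.10 to -0.09.

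Element length, which the rule did not use, and family were set beside the calls. The median length was 8521 bp for the elements higher in carriers, 8481 bp for those lower, 8473 bp for those not called and 8324 bp for those rising with copy number, within a range of 1204 to 30826 bp over all tested. RLC00002 and RLC00004 together gave 33.6% of the tested elements, 39.1% of those higher, 47.5% of those lower and 51.4% of the dosage risers. These shares are descriptions with no test. Among the other large groups of long terminal repeat elements without the zmB tag, 52.1% of tested Gypsy elements and 54.4% of tested unclassified elements were called for B presence, against 43.6% of Copia elements; the difference was not tested.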

How the data were processed

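The authors deposited raw read counts per TE and per ERCC spike-in (synthetic RNAs added to each RNA sample), whole numbers per the file headers and values. No label says which assay the TE table comes from, and RNA-seq was assumed. The TE values were also deposited as RPKM, on TMM-scaled totals as the values show. Dividing counts by RPKM gave element lengths, within 0.00826 bp of a whole number. The authors' own comparisons were deposited as log2 fold changes with FDR values (adjusted p-values), from edgeR per the file headers. The tools named, per the submitters' processing notes, are Bowtie2, TopHat2, Cuffdiff, edgeR and cutadapt 1.16, without their roles. The aligner settings, genome build and multi-mapping rule are not given in the sources used here.

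All TEs were tested in 1 fit by edgeR 4.0.16 (R 4.3.3; quasi-likelihood test), with TMM factors and filterByExpr by group, over 28 libraries in 8 groups. B presence is the average over the 7 carrier groups less the control level; dosage is the slope per copy among the 24 carriers, controls left out. Family fits used summed counts of all TE families. P-values were adjusted by Benjamini-Hochberg over every feature tested, with a threshold of 0.05, and SE is the log2 change divided by the square root of F. CPM values are counts divided by TMM-scaled TE totals (edgeR's CPM). Floors are 3 counts over the control or carrier group, and counting intervals are 95%, exact. Shares were tested with exact permutation, which can give 4.9e-05 at the smallest, and correlations with 100000 permutations (scipy 1.17.1).

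Named families are the 10 with the most counts and the 5 largest rises and falls in each comparison. Named elements are the 6 with the highest RPKM, the 8 largest rises and falls for B presence with the same direction at every copy number, and the 5 for dosage, all called and at 1 CPM or more on average. Other elements are said to be named after their values were seen. Members and lists were chosen with earlier results of these data known. Genes that overlap the named elements were not analysed here, since no TE coordinates were used. No 2 libraries had identical counts. The scripts were tested on simulated data. Alternatives were other scalings, tests and filters, a replicate block and libraries left out.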

Additional observations from a re-analysis of the deposited data

Results flagged for a closer look

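Only some of the named elements and families, and the Copia share, were checked for plants that lay apart. In 4 of the 85 groups of 4 plants checked, 1 plant lay apart from the other 3 by a gap above Dixon's 95% critical value. The other named elements and families were not checked in this way. Chance alone gives about 1 in 20. The RLC00004 family stood at 6066 CPM in 1B replicate 2, against 7412, 7463 and 7529 CPM in the other 1B plants. Its element with the most counts, RLC00004Zm00004b06651, stood at 2808 CPM in the same plant, against 4047, 4249.7 and 4269.6 CPM. The RLC03925 family stood at 436 CPM in Control replicate 3, against 378, 387 and 388 CPM in the other controls. RLC00002Zm00004b00095 stood at 2541 CPM in Control replicate 2, against 3071, 3167 and 3171 CPM.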

How the results depend on the processing

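The numbers of called elements and families stayed within 1.5 times the reported ones under RLE size factors, the DESeq2 Wald test, removal of the 10 TEs with the most counts, pooling of carriers as 1 group, and removal of Control replicates 2 and 4 and 1B replicate 3. Without those 3 libraries the higher calls alone moved further, from 41 to 23 families for B presence and from 87 to 47 elements in 1B and 83 to 52 in 2B. The exceptions in the totals came with the filter, the scaling and the make-up of families. Without a filter on low counts, 970 elements (131 higher, 839 lower) and 184 families were called for B presence; without Control replicate 1 as well, 516 elements (99 higher, 417 lower), a combination chosen after seeing the data. With ERCC spike-in scaling, 31 elements and 11 families were called for dosage. Without the top element of each family, also chosen after seeing the data, 28 families were called for B presence and 3 for dosage. The difference in Copia share was 0.00 without the 10 TEs with the most counts in the denominator and reversed to -0.10 without the 3 libraries named above, its correlation with copy number was 0.177 with ERCC counts as denominator, and the RLC00002 family reversed to 0.04 with ERCC spike-in scaling. The cause was not tested.

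Leaving out 1 library at a time gave 202 to 270 elements for B presence, 40 to 66 for dosage, 147 to 205 in 1B, 151 to 200 in 2B, 143 to 201 in 3B, 176 to 234 in 4B, 112 to 163 in 5B, 175 to 231 in 6B and 164 to 215 in 7B. Families ranged from 74 to 103 for B presence and from 15 to 23 for dosage. The share difference ranged from 0.03 to 0.39 and its correlation from 0.449 to 0.579. Where a lone 5B plant was left, it was assumed to vary like the other groups. The filter then also asked for its level in only 1 library, so it could let in more elements and families. The upper ends of the ranges for B presence came from such fits.

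The replicate numbers did not pair the plants: over 87 same-numbered pairs the correlation of deviations from group means ran from -0.332 to 0.174, and 3 of 28 libraries correlated best with their own number. With a replicate block, 231 elements (109 higher, 122 lower) were called for B presence and 49 (36 rising, 13 falling) for dosage, and 88 and 16 families. Depth limited the test to elements with reads in several plants: the other 12790 were not tested.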

Other observations

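One Copia element was erratic between plants of the same group. RLC00002Zm00004b14466, noticed after its values were seen, ranged from 7.63 to 566 CPM over the 4 controls and from 21.9 to 1442 CPM over the 24 carriers, with a carrier median of 32.3 CPM. Its 7B plants had a mean of 465 ± 744 CPM (SD, n = 3). It had one of the steepest slopes with copy number, 0.54 ± 0.20 log2 per copy (SE), and did not pass the test (edgeR adjusted p = 0.0823).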
